A study of Homo sapiens with 4 samples.

Results

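MHC class I antigen presentation was examined in ES2 cells, an established human ovarian cancer cell line, through 9 genes. These were HLA-B, HLA-C, HLA-E, HLA-F, B2M, TAP1, TAP2, TAPBP and NLRC5, taken by symbol and chosen with earlier results of these data known. All 9 were among the 23228 genes listed in the count tables, and all 9 were among the 13546 genes that passed the filter on low counts (edgeR's filterByExpr with a minimum count of 10). The question was whether liquiritigenin (Liq), a plant flavanone used in the study as an agonist of estrogen receptor β, changed their transcript levels. ES2 cells in phenol red-free medium with charcoal-treated serum received vehicle or 100 μM Liq, and total RNA was sequenced after 24 h from 2 samples of each group. The dose is that of the study's methods. Nothing in the labels says that the 2 samples of a group came from separate cultures, so the p-values measure only the spread between these samples.

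MHC class I molecules carry peptides from inside the cell to its surface, where cytotoxic T cells read them and natural killer (NK) cells sense their loss. HLA-B, HLA-C, HLA-E and HLA-F encode heavy chains, and B2M encodes β2-microglobulin, the light chain that every class I heavy chain needs for a stable fold. The proteasome cuts proteins into peptides, the transporter made of TAP1 and TAP2 moves them into the endoplasmic reticulum, and tapasin (TAPBP) holds an empty heavy chain beside that transporter until a peptide fits. NLRC5 is a transcriptional co-activator that works at a module of X and Y boxes shared by class I promoters, while interferons act on the same genes through IRF1 and IRF-binding elements. Tumor cells often lower this pathway, and interferon-γ and NF-κB raise it.

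In Liq-treated ES2 cells the estimated levels of the 9 genes lay near those in vehicle. None of the 9 reached a Benjamini-Hochberg adjusted p-value under 0.05 in edgeR's quasi-likelihood test, against 24% of all tested genes (12.6% higher and 11.3% lower), and none passed it with a change of 1.5-fold, against 6.45% of all tested genes (4.29% higher and 2.16% lower). The largest differences were those of TAP1, 16.6% higher with Liq, and HLA-C, 15.5% higher. These 2 of the 9 had an unadjusted p-value under 0.05, which 36.1% of all tested genes had, and an adjusted one above it (0.073 and 0.056, edgeR). The DESeq2 Wald test also called 0 of the 9. The estimates ranged from -0.02 for HLA-B to 0.22 for TAP1 on the log2 scale with a median of 0.11, while the median of all tested genes was 0.01. For 8 of the 9 genes the 95% interval of the difference lay inside 1.5-fold in both directions, the exception being HLA-F, which had too few counts.

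Upstream sequences of the genes are shown first, because they hold the elements through which the pathway is known to be controlled and on which the heavy chains differ. RefSeq starts were given for 7 of the 9 genes (build GRCh38.p14), and not for HLA-E and NLRC5. TAP1 had 2 entries, of which the one farthest upstream was used, so its sequence, its letters and its distance to other starts rest on that start. The 250 bases before each start were matched once in GRCh37, the build of the counts. Upstream here means before the RefSeq start, which need not be the edge of the GENCODE gene spans given below. The windows of HLA-B and HLA-F lie wholly inside those spans, and the windows of HLA-C, B2M and TAP1 lie partly inside them. Capitals mark the letters CCAAT (the core of the Y box), TGACG (the core of the X2 box), AANNGAAA (an IRF element) and an NF-κB type site (GGG, any 2 bases, TT, any base, CC), searched on both strands. The IRF letters were chosen after the sequences had been read, and capitals run together where matches overlap. HLA-B (chr6:31324957-31325206, minus strand), HLA-C (chr6:31239870-31240119, minus strand) and HLA-F (chr6:29690961-29691210, plus strand) are given as heavy chains at high and very low levels, B2M (chr15:45003465-45003714, plus strand) as the light chain, and TAP1 (chr6:32821482-32821731, minus strand) as the gene with the largest difference.
HLA-B: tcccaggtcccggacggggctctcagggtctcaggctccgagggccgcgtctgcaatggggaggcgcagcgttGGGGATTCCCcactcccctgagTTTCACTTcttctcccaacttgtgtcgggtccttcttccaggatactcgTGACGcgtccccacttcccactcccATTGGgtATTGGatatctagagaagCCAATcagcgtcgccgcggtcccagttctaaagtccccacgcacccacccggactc
HLA-C: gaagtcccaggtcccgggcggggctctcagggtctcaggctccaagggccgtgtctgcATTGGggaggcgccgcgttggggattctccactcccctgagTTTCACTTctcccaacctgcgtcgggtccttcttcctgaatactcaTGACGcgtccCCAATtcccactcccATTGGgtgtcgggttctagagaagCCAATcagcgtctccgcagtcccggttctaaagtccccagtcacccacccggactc
HLA-F: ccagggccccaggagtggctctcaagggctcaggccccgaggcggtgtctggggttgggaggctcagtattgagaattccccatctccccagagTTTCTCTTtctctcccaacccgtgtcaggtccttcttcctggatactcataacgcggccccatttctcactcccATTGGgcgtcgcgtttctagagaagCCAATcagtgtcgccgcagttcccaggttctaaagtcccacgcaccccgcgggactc
B2M: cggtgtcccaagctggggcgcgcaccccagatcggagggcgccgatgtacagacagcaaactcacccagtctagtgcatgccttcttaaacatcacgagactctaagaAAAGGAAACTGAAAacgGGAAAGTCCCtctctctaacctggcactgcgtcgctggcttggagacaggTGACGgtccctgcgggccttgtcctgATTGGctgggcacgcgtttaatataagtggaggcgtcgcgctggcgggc
TAP1: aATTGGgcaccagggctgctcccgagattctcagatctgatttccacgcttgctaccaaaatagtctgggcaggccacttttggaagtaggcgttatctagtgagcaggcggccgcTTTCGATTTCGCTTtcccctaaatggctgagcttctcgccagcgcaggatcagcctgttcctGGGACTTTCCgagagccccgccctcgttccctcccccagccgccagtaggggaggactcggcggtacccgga

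The upstream stretches of HLA-B and HLA-C were 89.0% identical over a global alignment, those of HLA-B and HLA-F 80.4%, and those of HLA-B and B2M 46.6%. HLA-B and B2M held all 4 kinds of letters. HLA-C lacked the NF-κB type letters, HLA-F lacked these and the X2 letters, and TAP1 lacked the X2 letters. Of the genes whose sequences are not printed, TAP2 lacked the Y box and NF-κB type letters, and TAPBP lacked the Y box and X2 letters. Among all 35116 upstream windows of the same length, CCAAT occurred in 32.0%, TGACG in 21.2%, AANNGAAA in 20.3% and the NF-κB type letters in 5.07%. As the IRF letters were chosen after the sequences had been read, their 20.3% is no comparison for the genes here. All these matches describe letters only, and no binding was measured here.

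Of the 9 genes, 7 lie within 3.59 Mb of the MHC on chromosome 6, and B2M and NLRC5 lie on chromosomes 15 and 16. Library totals over genes lay between 34573053 and 48933893 counts, and 3 counts corresponded to 0.060 to 0.084 CPM (counts relative to library size, with TMM normalisation). Beside the counts on genes, the tables set apart 35.6% to 36.2% of their tallies as not uniquely aligned. In the reference transcripts, 5.34% of the 100-base windows of HLA-C, 2.99% of HLA-B, 2.12% of HLA-E and 1.23% of HLA-F recurred with at most 2 mismatches in a gene elsewhere. The values were 2.21% for TAPBP and 0 for B2M, TAP1, TAP2 and NLRC5. The reads were aligned to the reference genome, which need not carry the HLA alleles of ES2, so the levels of the HLA genes are uncertain.

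The labelled cell type was checked with markers. The keratin genes KRT7, KRT8 and KRT18 were present (252, 23.8 and 198 CPM in vehicle) together with VIM, which encodes the mesenchymal filament vimentin, at 7479 CPM. EPCAM, CDH1, NAPSA and MUC16 had at most 8 counts in any library, and PAX8 had 46 to 49 counts in vehicle and 12 to 29 with Liq, so several ovarian epithelial markers were absent or low. Of 10 leukocyte markers, CD3E, CD3D, MS4A1 and NKG7 had 0 counts in all 4 libraries and PTPRC had 1 count in 1 library. The summed level of this list was 68.3 to 74.9 CPM in vehicle and 66.6 to 78.0 CPM with Liq, nearly all of it CD68, and of its 2 tested genes LYZ fell (8 to 23 counts over the 4 libraries). Of the 10 epithelial and ovarian markers 5 were tested, KRT7 rose, and KRT18, PAX8 and WT1 fell, with summed levels of 459 to 499 CPM in vehicle and 532 to 577 CPM with Liq. Of 8 fibroblast and endothelial markers 4 were tested, and PDGFRB and COL1A1 rose and VIM fell. The summed levels of this list were 8568 to 8904 CPM in vehicle and 7201 to 7960 CPM with Liq. Among its endothelial markers, CDH5 measured 51.8 CPM in vehicle and 46.4 CPM with Liq (adjusted p = 0.167, edgeR), while PECAM1 and VWF had 1 to 10 counts. COL1A2 had 3 to 7 counts, beside COL1A1 at 1204 CPM in vehicle. The shares of tested genes called in the leukocyte, epithelial and fibroblast lists were 50%, 80% and 75%, beside 24% of all tested genes. The part of these marker changes in the results that follow was not tested. In bulk RNA, fewer cells of a type and less RNA per cell cannot be told apart.

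**Figure D1:**
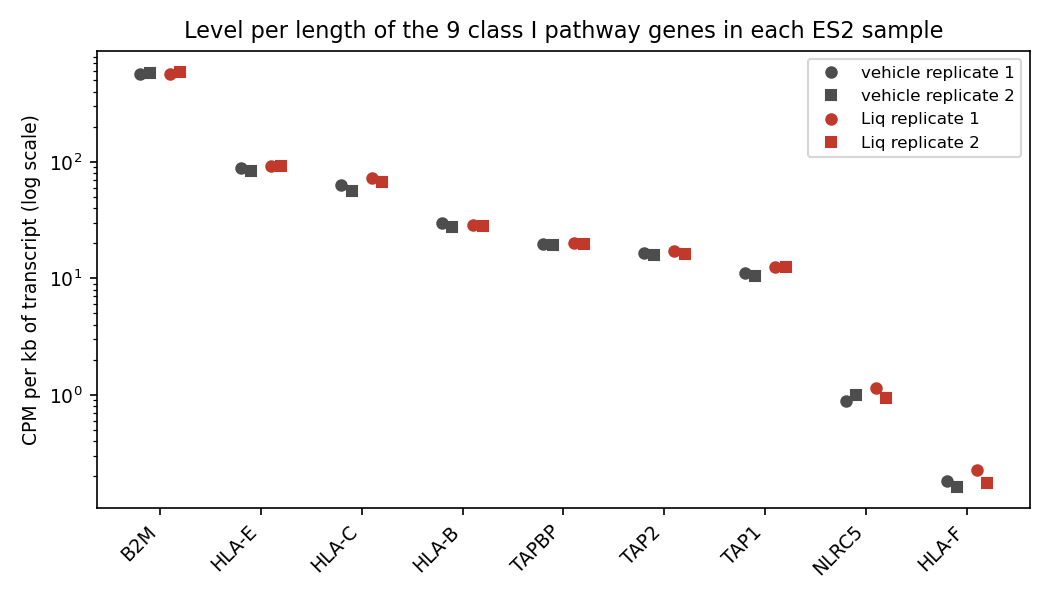
Level of each gene in each of the 4 samples, as TMM-normalised CPM per kb of the canonical transcript on a log axis (circles and squares are replicates 1 and 2, grey is vehicle, red is Liq). B2M stands at 563 to 596 in all 4 samples and HLA-F at 0.162 to 0.228, and within each gene the 4 points lie close together.

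Levels of the genes were compared per length, as CPM per kb of the canonical transcript, and the ranges over the 4 samples did not overlap between any neighbours in the order that follows. B2M was highest at 571 ± 11 CPM per kb in vehicle (SD, n = 2). HLA-E followed at 85.5 ± 3.4, HLA-C at 60.1 ± 4.9 and HLA-B at 28.7 ± 1.9 CPM per kb (SD, n = 2). The loading genes came next, with TAPBP at 19.6 ± 0.1, TAP2 at 16.2 ± 0.3 and TAP1 at 10.8 ± 0.5 CPM per kb (SD, n = 2). NLRC5 stood at 0.939 ± 0.070 and HLA-F at 0.172 ± 0.013 CPM per kb (SD, n = 2). Among the 11417 tested genes with a known length, 84.3% of the tested genes, B2M was at the 99.4th percentile, HLA-E at the 93.5th, TAP1 at the 55.3rd and HLA-F at the 4.7th. The order was the same with Liq.

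HLA-B (chromosome 6 from 31321649 to 31334844, GRCh37, GENCODE annotation) encodes a classical heavy chain that presents peptides to cytotoxic T cells. Vehicle gave 1897 and 1575 counts and Liq gave 1574 and 2157. On the CPM scale these were 46.1 and 42.1 in vehicle and 44.3 and 43.0 with Liq, so both Liq samples lay between the vehicle samples. The log2 fold change was -0.02 (SE 0.09, adjusted p = 0.908, edgeR), with a 95% interval of 0.875-fold to 1.12-fold.

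HLA-C (chromosome 6 from 31236526 to 31239907) encodes a classical heavy chain that is also a main ligand of the inhibitory receptors of NK cells. Its level was 98.0 and 87.3 CPM in vehicle and 111 and 103 CPM with Liq. Both Liq samples were above both vehicle samples, and the gap between the groups was smaller than the gap between the vehicle samples. The log2 fold change was 0.21 (SE 0.08, adjusted p = 0.056, edgeR), with an interval of 1.03-fold to 1.29-fold. HLA-C passed the threshold in 4 of 11 alternative fits. Among them was the one without Liq replicate 2 (log2 fold change 0.26), where the spread came from the vehicle pair alone. Over the 11 fits its adjusted p-value ranged from 0.0035 to 0.575.

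HLA-E (chromosome 6 from 30457286 to 30461971) encodes a non-classical heavy chain that shows leader peptides of other class I chains to the NKG2A receptor of NK cells. It measured 224 and 212 CPM in vehicle and 235 CPM in each Liq sample. Both Liq samples were above both vehicle samples, and the distance between the groups was smaller than that between the vehicle samples. The log2 fold change was 0.11 (SE 0.07, adjusted p = 0.253, edgeR), with an interval of 0.979-fold to 1.19-fold.

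HLA-F (chromosome 6 from 29690552 to 29706305) encodes another non-classical heavy chain, found mostly inside cells. It had 11 and 9 counts in vehicle and 12 and 13 with Liq, which is 0.268, 0.240, 0.337 and 0.259 CPM. The groups overlapped, and the interval ran from 0.583-fold to 2.26-fold, so a change of 1.5-fold in either direction was not detectable at this depth. The estimate was 0.20 on the log2 scale and -0.09 with loess offsets, a normalisation along the expression level. In the annotation HLA-F shares exon sequence with HLA-F-AS1 on the other strand, a listed gene that had 0 to 3 counts. The strand setting of the counting is not given in the sources used here, so reads of the pair cannot be told apart.

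B2M (chromosome 15 from 45003556 to 45011049) was the most abundant of the 9, with 21831 and 20440 counts in vehicle and 18867 and 28217 with Liq. Its level was 531 and 546 CPM in vehicle and 531 and 562 CPM with Liq, and the groups overlapped. The log2 fold change was 0.02 (SE 0.06, adjusted p = 0.844, edgeR), and the interval of 0.928-fold to 1.11-fold was the narrowest of the 9.

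TAP1 and TAP2 encode the partners of the peptide transporter and both lie on chromosome 6 (32812986 to 32821593 and 32789610 to 32806516). TAP1 measured 29.9 and 27.9 CPM in vehicle and 33.9 and 33.5 CPM with Liq. Both Liq samples were above both vehicle samples, by more than the spread within either group. The log2 fold change of TAP1 was 0.22 (SE 0.09, adjusted p = 0.073, edgeR), with an interval of 1.03-fold to 1.32-fold, and it passed the threshold in 2 of 11 alternative fits (adjusted p from 0.021 to 0.475). TAP2 measured 92.9 and 90.4 CPM in vehicle and 96.6 and 90.9 CPM with Liq, and the groups overlapped. For TAP2 the log2 fold change was 0.03 (SE 0.08, adjusted p = 0.802, edgeR).

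TAPBP (chromosome 6 from 33267471 to 33282061), the tapasin gene, measured 67.7 and 67.4 CPM in vehicle and 69.4 and 67.6 CPM with Liq. The 4 values differed by little and the groups overlapped, and the log2 fold change of TAPBP was 0.02 (SE 0.08, adjusted p = 0.882, edgeR). NLRC5 (chromosome 16 from 57023397 to 57117443) had 248 and 251 counts in vehicle and 275 and 320 with Liq. Its level was 6.03 and 6.70 CPM in vehicle and 7.73 and 6.38 CPM with Liq, and Liq replicate 2 lay between the vehicle samples. The log2 fold change was 0.14 (SE 0.13, adjusted p = 0.484, edgeR), with an interval of 0.911-fold to 1.33-fold.

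**Figure D2:**
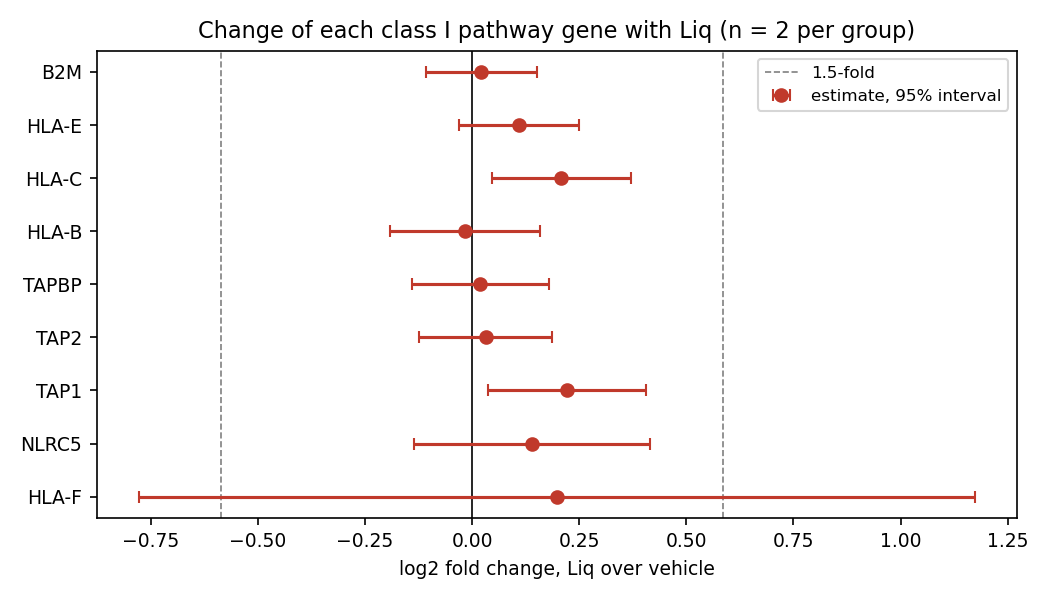
Log2 fold change of each gene, Liq over vehicle, with its 95% interval from edgeR's quasi-likelihood fit (n = 2 per group); dashed lines mark 1.5-fold. The intervals of 8 genes lie between the dashed lines, and that of HLA-F reaches from 0.583-fold to 2.26-fold.

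In 3 of the 9 genes (HLA-C, HLA-E and TAP1) both Liq samples lay above both vehicle samples, and in 0 they lay below. Among all tested genes the groups did not overlap in 61.7%, with 31.5% higher and 30.2% lower, so the count of the 9 was near this background for higher genes and below it for lower ones. The estimate was above 0 for 8 of the 9 genes with TMM, and the signs of HLA-B under upper-quartile scaling (0.01) and of HLA-F under loess offsets (-0.09) were turned. Leaving out 1 sample also turned signs of estimates near 0. HLA-B was at 0.05 without vehicle replicate 1 and at 0.0037 without Liq replicate 2, where B2M was at -0.02. Without Liq replicate 1, TAP2 was at -0.01 and TAPBP at -2.6e-05, so that 6 of the 9 estimates were above 0. The tested genes whose 4 values lay nearest to the mean profile of the 9, by Euclidean distance over the 4 samples, were TMEM177, TRAFD1, CSNK1G2, NMRAL1 and DPAGT1, at distances of 0.011 to 0.017 on the log2 scale. Their log2 fold changes were 0.10 to 0.12, with adjusted p-values of 0.348 to 0.454 (edgeR). Each of the 9 genes had equal weight in the mean profile. HLA-F, with 9 to 13 counts, and NLRC5 were highest in Liq replicate 1. The estimates of HLA-B, B2M, TAP2 and TAPBP were -0.02 to 0.03, so the mean profile need not describe each single gene.

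Ratios within a library do not depend on normalisation, and they were used to describe how partner genes stood to each other. HLA-C had 2.12 and 2.07 counts for each count of HLA-B in vehicle and 2.52 and 2.39 with Liq, and HLA-E had 4.85 and 5.03 in vehicle and 5.31 and 5.47 with Liq. Both ratios share HLA-B as the denominator, and both were higher in each Liq sample than in either vehicle sample. Over B2M the groups overlapped for HLA-C (0.185 and 0.160 in vehicle, 0.210 and 0.183 with Liq). They also overlapped for HLA-E over B2M (0.422 and 0.388 in vehicle, 0.443 and 0.418 with Liq). The levels of single genes did not overlap in 61.7% of all tested genes, and no such share is given for ratios. TAP1 over TAP2 was 0.321 and 0.308 in vehicle and 0.351 and 0.368 with Liq, also without overlap, while TAPBP over TAP2 was 0.729 and 0.745 in vehicle and 0.719 and 0.743 with Liq. The 4 heavy chains summed over B2M gave 0.694 and 0.625 in vehicle and 0.737 and 0.678 with Liq, so heavy and light chains kept overlapping ratios. With 2 samples against 2, an exact permutation test cannot give a p-value below 0.333, and these ratios were not tested.

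**Figure D3:**
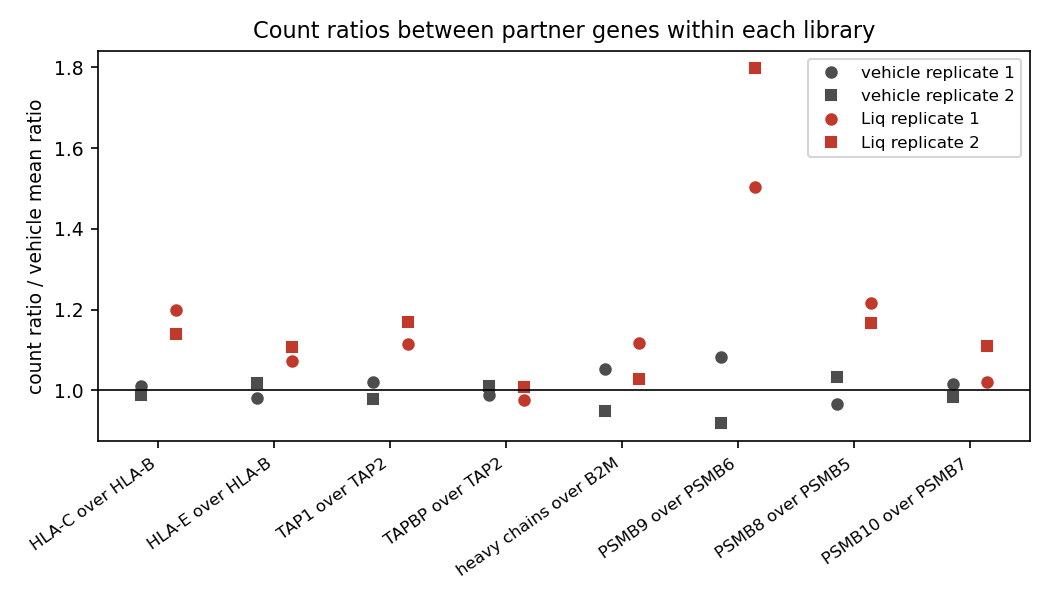
Count ratios between partner genes in each of the 4 libraries, each divided by its mean in vehicle (circles and squares are replicates 1 and 2, grey is vehicle, red is Liq). HLA-C over HLA-B and TAP1 over TAP2 lie higher in both Liq samples, TAPBP over TAP2 and the heavy chains over B2M overlap, and PSMB9 over PSMB6 has the widest gap.

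Of 22 genes that cut, trim and load peptides, 14 did not pass an adjusted p-value of 0.05, 5 rose and 3 fell, beside 12.6% higher and 11.3% lower among all tested genes. None of these 8 changed by 1.5-fold, and the median log2 fold change of the list was 0.04. The genes that rose were CALR, CANX, PDIA3, ERAP1 and PSMB9. CALR, which encodes calreticulin, rose from 977 ± 29 to 1419 ± 67 CPM (SD, n = 2), or 0.54 on the log2 scale (SE 0.06, adjusted p = 1.74e-07, edgeR). PDIA3, encoding the thiol oxidoreductase bound to tapasin, rose from 391 to 484 CPM, CANX (calnexin) from 1036 to 1213 CPM and ERAP1, the aminopeptidase that trims peptides to length, from 58.8 to 75.4 CPM. These chaperones also fold many proteins other than class I chains.

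PSMB9, an interferon-inducible subunit of the immunoproteasome, rose (log2 fold change 0.55, SE 0.14, adjusted p = 0.0069, edgeR). It measured 5.33 and 4.01 CPM in vehicle and 6.50 and 7.13 CPM with Liq, so the vehicle samples differed by more than the Liq samples. Its RefSeq start lies 488 bases from that of TAP1 on the opposite strand, and their annotated spans overlap. The other immunoproteasome subunits did not pass the test, with log2 fold changes of 0.04 for PSMB8 and -0.19 for PSMB10 (adjusted p = 0.774 and 0.210, edgeR). The constitutive catalytic subunits PSMB5 and PSMB7 fell by 0.21 and 0.28 on the log2 scale, and PSMB6 had a log2 fold change of -0.17 (adjusted p = 0.120, edgeR). PSME3, a proteasome activator of the nucleus, fell from 259 to 212 CPM. The count ratio of PSMB9 to its constitutive counterpart PSMB6 was 0.0334 and 0.0283 in vehicle and 0.0464 and 0.0554 with Liq. That of PSMB8 to PSMB5 was 0.232 and 0.248 in vehicle and 0.292 and 0.280 with Liq. For PSMB10 to PSMB7 it was 0.0684 and 0.0662 in vehicle and 0.0687 and 0.0748 with Liq.

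Of 15 genes that control transcription of class I genes, 4 fell and 0 rose, with a median log2 fold change of -0.05. The share called, 26.7%, was near the 24% of all tested genes (12.6% higher and 11.3% lower). Those that fell were NFKB1, encoding the p50 subunit of NF-κB (58.4 to 44.9 CPM, log2 fold change -0.38, adjusted p = 0.0013, edgeR), NFYA and RFXANK, which encode parts of the complexes on the Y and X boxes, and ATF1, a relative of CREB1. NFYA fell from 137 to 115 CPM, RFXANK from 38.5 to 32.6 CPM and ATF1 had log2 fold change -0.28 (adjusted p = 0.028, edgeR). CREB1 had log2 fold change 0.21 (adjusted p = 0.059, edgeR). IRF1 measured 15.8 and 15.7 CPM in vehicle and Liq (adjusted p = 0.935, edgeR). RFX5 had a log2 fold change of 0.07 (adjusted p = 0.576, edgeR), and CIITA, the class II counterpart of NLRC5, had 24 to 30 counts in every sample.

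Of 12 genes of interferon receptors and signalling, 3 rose and 2 fell, beside 12.6% and 11.3% of all tested genes. IFNGR2, the signalling chain of the interferon-γ receptor, fell from 87.6 ± 2.9 to 61.9 ± 2.8 CPM (SD, n = 2), or -0.50 on the log2 scale (SE 0.08, adjusted p = 3.224e-05, edgeR). Its partner chain IFNGR1 measured 52.9 and 55.7 CPM (adjusted p = 0.531, edgeR). The kinase gene JAK1 and the factor gene STAT2 rose by 0.21 and 0.27 on the log2 scale. Both other called genes encode inhibitors of the pathway, SOCS3, which rose from 51.2 to 65.4 CPM, and PTPN2, which fell from 46.3 to 37.8 CPM.

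The class I-like genes and ligands of NK cell receptors included the only decreases of 1.5-fold among the 5 pathway lists. Of 15 genes, 11 were tested, of which 3 rose and 2 fell, the latter by 1.5-fold. Among all tested genes 24% were called and 2.16% were lower by 1.5-fold. RAET1E and ULBP2, which encode stress ligands of the activating receptor NKG2D, both fell. RAET1E had 55 and 71 counts in vehicle and 22 and 27 with Liq, or -1.49 on the log2 scale (SE 0.28, adjusted p = 0.00031, edgeR), and ULBP2 had 188 and 158 counts in vehicle and 91 and 160 with Liq, or -0.60 on the log2 scale (SE 0.16, adjusted p = 0.0081, edgeR). MICA, another ligand of the same receptor, rose from 447 and 418 counts to 595 and 651, or 0.42 on the log2 scale (adjusted p = 0.0096, edgeR). MICB differed by 0.21 on the log2 scale (adjusted p = 0.107, edgeR) and ULBP3 by -0.36 (adjusted p = 0.121, edgeR). HFE, a regulator of iron uptake with a class I fold, rose by 0.32 on the log2 scale, and PROCR, the protein C receptor, rose from 70.7 to 81.7 CPM. HLA-G had 1 to 4 counts and was not tested.

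MHC class II genes were low. Of 12 genes, 5 were tested, and beside 24% called among all tested genes, 1 of the 5 (20%) rose. This was HLA-DMA, which encodes a chain of the peptide exchanger of class II molecules, with 65 and 74 counts in vehicle and 115 and 149 with Liq (log2 fold change 0.80, SE 0.19, adjusted p = 0.0029, edgeR). HLA-DPA1 and HLA-DPB1 measured 7.85 and 8.06 CPM in vehicle with adjusted p-values of 0.844 and 0.678 (edgeR). HLA-DRA and HLA-DRB1 had 11 to 22 counts in any library, and CD74, the invariant chain, had 3 to 10.

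**Figure D4:**
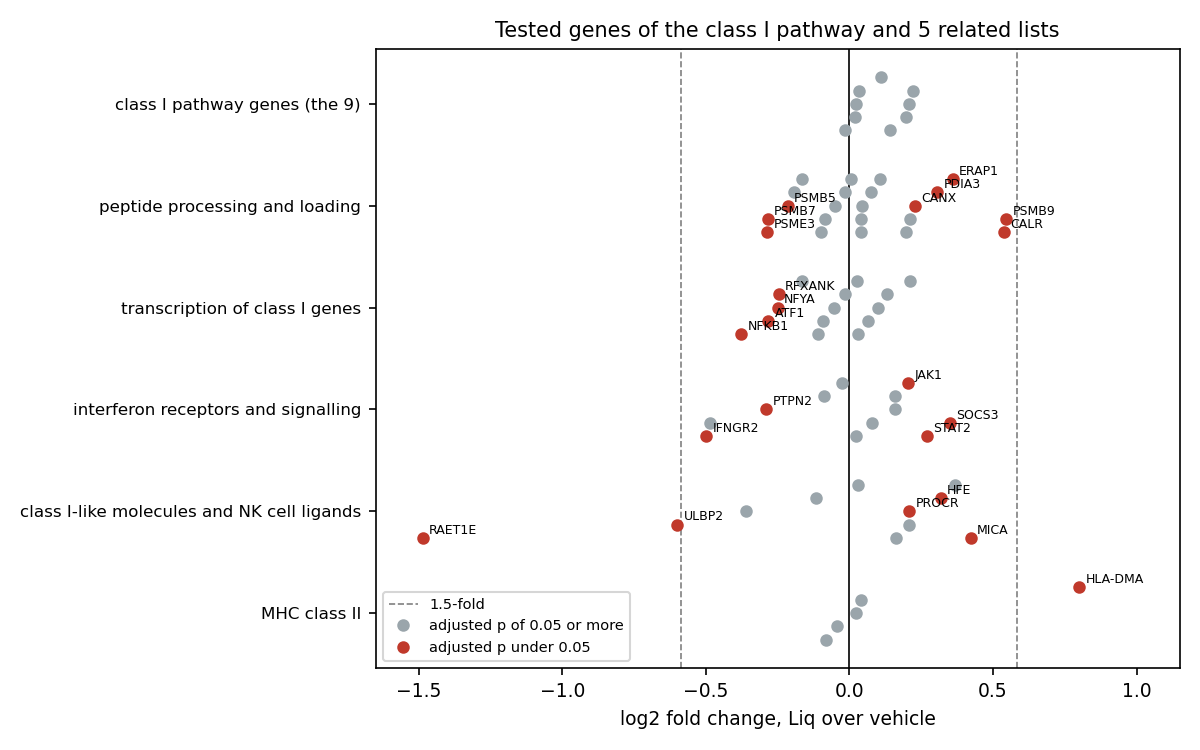
Log2 fold change of each tested gene, Liq over vehicle, for the 9 genes and 5 related lists; red points passed an adjusted p-value of 0.05 and are named, grey points did not, and dashed lines mark 1.5-fold. All 9 points of the class I genes are grey and lie between -0.02 and 0.22, while RAET1E reaches -1.49 and HLA-DMA 0.80.

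Over the 5 lists together, 12 of 65 tested genes rose and 11 fell, which is 35.4% against 24% of all tested genes. The counts fell when a vehicle sample was left out. The spread was then estimated from the Liq pair alone, which differed more than the vehicle pair did. Such counts therefore cannot show dependence on particular vehicle samples. Without vehicle replicate 1 there were 5 that rose and 3 that fell, and without vehicle replicate 2 there were 4 and 6, while the calls among all genes dropped from 3245 to 1413 and 1542. Among the 27 tested neighbours of the class I genes on chromosome 6, 1 rose and 5 fell, or 22.2% beside 24% of all tested genes. The median log2 fold change of these neighbours was -0.05. The chloride channel gene CLIC1 had the smallest p-value of these (log2 fold change -0.41, adjusted p = 5.61e-05, edgeR). BAG6, MRPS18B, PPP1R10 and DAXX had log2 fold changes of -0.31, -0.34, -0.33 and -0.22, and FLOT1, a lipid raft gene, was the 1 that rose (0.20). TUBB, a tubulin gene, was the highest of the 29 at 2034 CPM in vehicle and 2008 CPM with Liq, and CDSN and POU5F1 had 0 counts. These neighbours lie in the same region as 7 of the 9 genes, and the difference between them and the class I genes was not tested.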

How the data were processed

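RNA-seq counts of 4 ES2 samples were analysed, 2 treated with vehicle and 2 with Liq, grouped by their titles. Per the labels, the authors demultiplexed with bcl2fastq 2.17.1.14, aligned 100-base single-end reads to hg19 with TopHat2 2.0.8b and counted reads per gene with HTSeq. The deposited values are raw counts per gene symbol, not normalised or pooled, and the gene annotation and strand setting are not given in the sources used here. Such counts hold no multiply aligned reads and none that fit several genes, which lowers the values of related or overlapping genes. The 5 tally lines of each table were left out of library sizes and tests.

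The main test was edgeR 4.0.16 in R 4.3.3 (filterByExpr, min.count 10, min.total.count 15; TMM; glmQLFit and glmQLFTest, no replicate block), and p-values were adjusted over all 13546 tested genes by the Benjamini-Hochberg method. The SE is the log2 fold change divided by the square root of F. The fits were tested on simulated data. Coordinates and transcript lengths are those of GENCODE v44 lifted to GRCh37. Alternatives were other normalisations (DESeq2 size factors, upper quartile, loess offsets with a span of 0.3), other filters, DESeq2 1.42.0, the replicate block, and each sample left out in turn. The samples were kept apart, and replicates differed by more than sampling noise (chi-square per degree of freedom of 6.49 in vehicle and 11.6 in Liq). This statistic cannot tell separate cultures from separate preparations of the same culture. The study's methods say that the samples were run in duplicates.

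The members and lists were chosen with earlier results of these data known. Named genes were all 9 members; from each of 5 pathway lists those called at 1.5-fold and up to 5 others with the smallest p; IRF1, PSMB8, PSMB9, PSMB10, RFX5, CIITA and HLA-G whatever their value; from neighbours and markers the called, highest and lowest genes; and the 5 genes of at least 10 mean CPM nearest in profile. CANX, PSMB5, PSMB6, IFNGR1, CD74, HLA-F-AS1 and the other markers fall outside this rule and were chosen after their values were seen. A few listed genes are not reported here. Intervals and floors cover counting error and the spread between these samples only.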

Additional observations from a re-analysis of the deposited data

How the results depend on the processing

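Of 98 values of the 9 genes under alternative settings, 91 kept their side of the threshold, 7 newly passed it and 0 reversed a call. The count of class I genes called higher, 0 with TMM, was 2 with upper-quartile normalization (HLA-C and TAP1), 2 with loess offsets (HLA-C and HLA-E) and 2 with the replicate block (HLA-C and TAP1). With each sample left out in turn this count was 0 to 1, being 1 without Liq replicate 2, where HLA-C passed. The block rests on numbers that the samples merely share, since same-numbered samples had deviations that correlated at 0.036 across genes, and it raised the calls among all genes from 3245 to 4795. No alternative called any of the 9 lower or changed by 1.5-fold, and none of the 9 met an unadjusted p-value under 0.05 with 1.5-fold. Over the leave-one-out fits, pathway list genes called higher ranged from 4 to 11 and those called lower from 3 to 12, and calls among all genes from 1413 to 3780. With 1 sample in a group, the lone sample is assumed to vary like the other group. The log2 difference in heavy chains over B2M was 0.10, and -0.035 with HLA-B alone and 0.20 with HLA-F alone. HLA-F was not tested when at least 10 counts were required in every sample. Depth limits HLA-F, with at most 13 counts in a library.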
